A study of Homo sapiens with 6 samples.

Results

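Antigen presentation was followed here through 9 genes, taken by symbol from the 60664 Ensembl gene identifiers in the deposited table. They were 6 genes of the major histocompatibility complex (MHC) class I pathway (HLA-B, HLA-C, HLA-E, B2M, TAP1 and TAPBP) and 3 of the class II pathway (HLA-DRA, CD74 and CIITA). The libraries came from cells labelled LNCaP, a human prostate carcinoma line, named LNCaPE in the titles and described in the design text as an enzalutamide-resistant derivative. Enzalutamide is a drug used against prostate cancer. One group of 3 libraries carried the hairpin labelled shNC, and the other group of 3 a stable short hairpin RNA against PDGFC (shPDGFC). All 6 came from cells grown in DMEM with 10% fetal bovine serum, so both groups carry a hairpin and no group lacks one. No drug treatment is named in the labels. The number of hairpin sequences or clones is not stated. The protocol speaks of pooled RNA for each library without saying what was pooled, and no label ties the 3 libraries of a group to separate cultures. The p-values therefore cover the spread among these libraries alone, and that spread may be technical.

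MHC class I molecules display peptides from proteins made inside the cell to CD8+ T cells. Peptides cut by the proteasome are pumped into the endoplasmic reticulum by the TAP transporter, trimmed there by aminopeptidases and loaded onto a heavy chain bound to beta-2 microglobulin. Class II molecules display peptides from the endosomal route to CD4+ T cells. Their alpha and beta chains are assembled on the invariant chain, encoded by CD74, and in professional antigen presenting cells their genes are switched on by the coactivator CIITA. Most epithelial cells carry class I constitutively and class II only after exposure to interferon gamma.

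Levels are given in RPKM, reads scaled to gene length and library size, which permits comparison between genes. The 6 libraries held between 17360455 and 23930217 reads, recovered from the steps in the RPKM values. Mitochondrial genes took 3.73% to 4.06% of the reads in shNC and 4.18% to 4.66% in shPDGFC. The targeted gene, PDGFC, stood at 8.19, 8.71 and 8.13 RPKM in shNC and at 3.0, 2.43 and 2.52 RPKM in shPDGFC. Its log2 change was -1.36 ± 0.066 (SE; limma, adjusted p = 0.00016), with no overlap between the groups. The defining prostate markers were largely missing from cells labelled LNCaP. KLK3, which encodes prostate-specific antigen, had 1 read over the 6 libraries, and KLK2, a related kallikrein gene, had 1.

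Promoter windows from RefSeq (GRCh38.p14) were on hand for 6 of the 9 genes (HLA-B, HLA-C, B2M, TAP1, TAPBP and CD74). HLA-E, HLA-DRA and CIITA had none. Each window runs from 250 bases before the gene's start to 50 after it. TAPBP is shown because its mRNA rose, B2M and HLA-B because theirs did not pass the test, CD74 because it lay near 0, and HLA-DQB1, from the list of class II chains, because its mRNA fell. Capitals mark matches, on either strand, to 5 short motifs. These are the core of the interferon-stimulated response element (GAAA and GAAA spaced by 2 bases), the core of the gamma activated site (TTCNNNGAA), TGACG (the core of the X2 box), CCAAT (the core of the Y box, read by NF-Y) and the kappa B site (GGGA and TTTCC spaced by 1 base).
TAPBP (chr6:33314029-33314328, minus strand): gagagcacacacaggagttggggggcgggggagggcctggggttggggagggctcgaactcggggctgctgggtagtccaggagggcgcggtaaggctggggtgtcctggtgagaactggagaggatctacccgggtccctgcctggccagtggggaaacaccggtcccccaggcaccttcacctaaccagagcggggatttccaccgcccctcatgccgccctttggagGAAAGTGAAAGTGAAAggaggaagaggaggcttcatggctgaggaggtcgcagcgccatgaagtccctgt
B2M (chr15:44711267-44711566, plus strand): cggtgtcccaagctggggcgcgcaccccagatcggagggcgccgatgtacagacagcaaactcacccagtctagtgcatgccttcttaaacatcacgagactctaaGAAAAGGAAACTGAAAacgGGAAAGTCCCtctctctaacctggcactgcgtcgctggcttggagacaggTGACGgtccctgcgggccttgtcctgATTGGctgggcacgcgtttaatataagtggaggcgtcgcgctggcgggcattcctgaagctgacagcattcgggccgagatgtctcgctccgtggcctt
HLA-B (chr6:31357130-31357429, minus strand): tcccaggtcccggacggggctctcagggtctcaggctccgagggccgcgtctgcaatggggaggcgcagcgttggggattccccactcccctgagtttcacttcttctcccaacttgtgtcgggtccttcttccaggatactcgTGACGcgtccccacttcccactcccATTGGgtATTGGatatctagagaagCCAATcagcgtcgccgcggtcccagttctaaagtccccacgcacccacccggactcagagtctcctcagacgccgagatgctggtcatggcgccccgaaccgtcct
CD74 (chr5:150412861-150413160, minus strand): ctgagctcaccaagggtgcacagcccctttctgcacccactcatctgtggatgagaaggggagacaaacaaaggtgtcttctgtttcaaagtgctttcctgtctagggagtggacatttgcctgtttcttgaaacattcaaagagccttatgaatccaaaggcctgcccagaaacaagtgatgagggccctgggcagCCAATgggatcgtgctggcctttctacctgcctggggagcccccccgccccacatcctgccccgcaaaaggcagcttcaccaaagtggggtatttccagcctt
HLA-DQB1 (chr6:32666608-32666907, minus strand): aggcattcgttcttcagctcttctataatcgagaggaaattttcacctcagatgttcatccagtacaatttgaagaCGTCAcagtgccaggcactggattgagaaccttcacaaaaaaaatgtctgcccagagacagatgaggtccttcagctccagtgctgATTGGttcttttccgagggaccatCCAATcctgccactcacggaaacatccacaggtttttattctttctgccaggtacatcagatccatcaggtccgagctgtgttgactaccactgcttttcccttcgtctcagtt

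The TAPBP window held 2 matches to the interferon-stimulated response element core, which overlap each other between positions -20 and -5 from the start, and no other match. B2M had the same pair of overlapping matches between -144 and -129, a kappa B match, an X2 core at -75 and a Y box core at -49. HLA-B held an X2 core at -106 and Y box cores at -81, -74 and -56. In CD74 the one match was a Y box core at -53, and in HLA-DQB1 there were an X2 core at -174 and Y box cores at -88 and -64. Among all 35116 windows of this length, 3.6% held the interferon-stimulated core, 7.7% the gamma activated core, 24.6% TGACG, 34.6% CCAAT and 0.6% the kappa B site. These matches describe letters in a window and say nothing of occupancy.

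No difference between the groups was detected for the class I chains B2M, HLA-B, HLA-C and HLA-E. B2M, the light chain shared by all class I molecules (ENSG00000166710, chromosome 15, 44711487 to 44718877), was the most abundant of the 9 at 314, 327 and 324 RPKM in shNC and 340, 325 and 332 RPKM in shPDGFC. The groups overlapped, since the lowest shPDGFC library lay below the highest shNC library. Its log2 change on log2(RPKM + 1) was 0.048 with a 95% interval from -0.019 to 0.12 (limma, adjusted p = 0.25).

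HLA-C (ENSG00000204525, chromosome 6, 31268749 to 31272130) encodes a classical heavy chain that also serves as a ligand of inhibitory natural killer cell receptors. It was measured at 136, 136 and 134 RPKM in shNC and 142, 133 and 135 RPKM in shPDGFC. The shNC range lay inside the wider shPDGFC range. HLA-B, the other classical heavy chain among the 9 (ENSG00000234745, chromosome 6, 31269491 to 31357188), stood at 101, 88.6 and 91.3 RPKM in shNC and 97.4, 92.7 and 93.9 RPKM in shPDGFC. All 3 shPDGFC libraries fell inside the shNC range. The 95% interval of the log2 change ran from -0.053 to 0.086 for HLA-C (adjusted p = 0.72) and from -0.098 to 0.13 for HLA-B (adjusted p = 0.82).

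HLA-E, a heavy chain that presents leader peptides of other class I chains to natural killer cells (ENSG00000204592, chromosome 6, 30489467 to 30494205), was lower in level at 29.5, 29.2 and 27.7 RPKM in shNC and 28.8, 27.2 and 28.9 RPKM in shPDGFC. Its groups overlapped too, and its log2 change was -0.026 with a 95% interval from -0.11 to 0.056 (limma, adjusted p = 0.62). Class I heavy chains share sequence, so reads may be exchanged between them. In GENCODE 29 transcripts, 2.72% of the distinct 50-base stretches of HLA-B, 5.38% of those of HLA-C and 4.34% of those of HLA-E also occurred in another gene, against 0% for B2M. How the authors placed reads from HLA alleles that differ from the reference is not given in the sources used here.

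**Figure D1:**
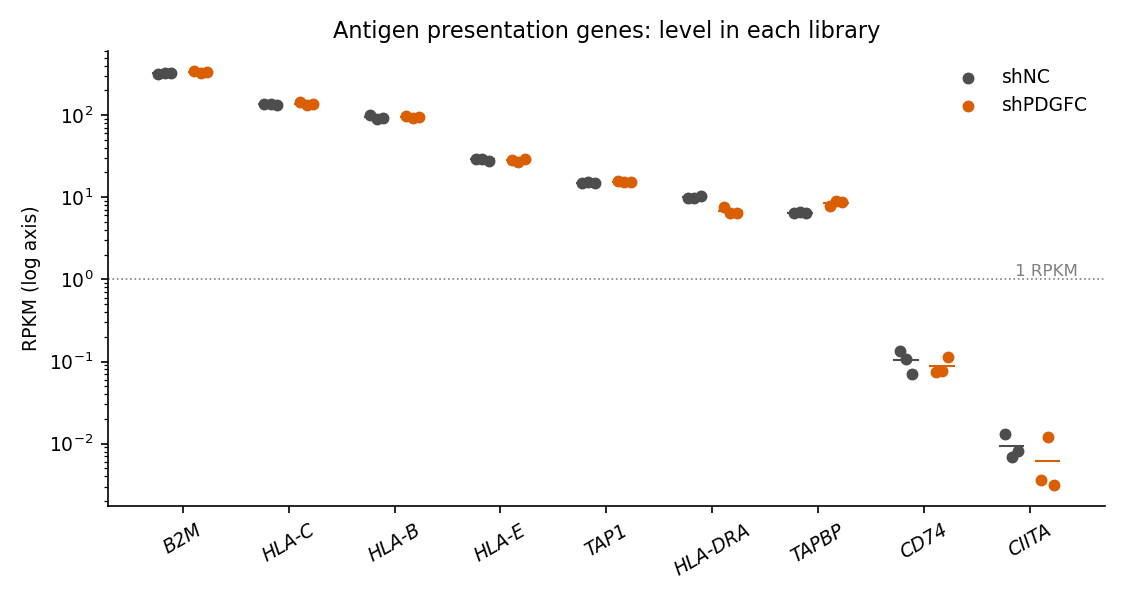
RPKM of the 9 antigen presentation genes in each library on a log axis, with shNC in grey and shPDGFC in orange; points are libraries, short bars are means of 3, and the dotted line is 1 RPKM. B2M, at 314 to 340 RPKM, and the class I heavy chains lie level between the groups, HLA-DRA and TAPBP separate in opposite directions, and CD74 and CIITA lie below 1 RPKM in all 6 libraries.

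Ordered by mean level over the 6 libraries, the 9 genes ran from B2M (327 RPKM) through HLA-C (136 RPKM), HLA-B (94.2 RPKM), HLA-E (28.6 RPKM) and TAP1 (15.3 RPKM) to HLA-DRA (8.46 RPKM) and TAPBP (7.46 RPKM), and then to CD74 (0.096 RPKM) and CIITA (0.0078 RPKM). Only HLA-DRA and TAPBP, neighbours in this order, had overlapping ranges over the libraries. Their order differed between the groups, because HLA-DRA stood above TAPBP in each shNC library and TAPBP above HLA-DRA in each shPDGFC library. The level of HLA-B was 9.33 ± 0.81 times that of HLA-DRA in shNC and 13.8 ± 0.95 times in shPDGFC (SD, n = 3). An exact two-sided permutation test of that ratio over 3 against 3 libraries gave p = 0.1, the smallest this design allows.

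Of the 9 genes, 7 reached an RPKM of 1 in at least 3 libraries and entered the test, 1 was called higher in shPDGFC (TAPBP) and 1 lower (HLA-DRA). Over all 15337 genes tested, 29.8% were called, 14.2% higher and 15.6% lower. The share of the 7 that changed was therefore near that background. Their median log2 change was 0.017, and that of all genes tested was -0.013.

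TAPBP was the class I gene that changed. It encodes tapasin, which bridges TAP and the empty heavy chain and edits the peptide cargo (ENSG00000231925, chromosome 6, 33299694 to 33314387). Its level was 6.35, 6.64 and 6.40 RPKM in shNC and 7.76, 8.98 and 8.65 RPKM in shPDGFC. Every shPDGFC library lay above every shNC library, and the mean was 31.0% higher. On the log2 scale it rose by 0.34 ± 0.053 (SE; limma, adjusted p = 0.0041). The shNC libraries held 1449 of its reads and the shPDGFC libraries 1713. The call held without any 1 library (adjusted p from 0.0037 to 0.018). TAPBP shared no exon bases with another annotated gene, but 4.17% of its 50-base stretches also occurred in transcripts of other genes.

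TAP1, the transporter subunit beside which tapasin sits (ENSG00000168394, chromosome 6, 32845209 to 32853978), was measured at 14.9, 15.2 and 14.9 RPKM in shNC and 15.7, 15.3 and 15.5 RPKM in shPDGFC. These groups did not overlap either, as was so for 46.8% of all genes tested, but the difference of 3.4% did not pass (log2 change 0.045, 95% interval -0.015 to 0.11; limma, adjusted p = 0.23). Within a library, TAPBP stood at 0.431 ± 0.0061 of the TAP1 level in shNC and 0.546 ± 0.048 in shPDGFC (SD, n = 3). All 3 shPDGFC ratios exceeded all 3 shNC ratios, and the exact two-sided permutation p was 0.1, the smallest possible here.

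Peptide loading was followed in a list of 9 genes that includes TAP1 and TAPBP. With TAPBP, 5 of the 9 rose and 0 fell, beside 14.2% called higher and 15.6% called lower over all genes tested. The list's median log2 change was 0.15, and that of all genes -0.013. ERAP1 and ERAP2 encode the aminopeptidases that trim peptides in the endoplasmic reticulum. ERAP1 was measured at 8.49, 8.37 and 8.88 RPKM in shNC and 10.3, 10.5 and 10.1 RPKM in shPDGFC (log2 change 0.24 ± 0.035 SE; limma, adjusted p = 0.0032). ERAP2 stood at 12.5, 11.6 and 11.3 RPKM in shNC and 14.8, 13.5 and 14.7 RPKM in shPDGFC (log2 change 0.26 ± 0.049 SE; adjusted p = 0.0078). For both trimming enzymes the lowest shPDGFC library exceeded the highest shNC library.

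The chaperone genes of the complex moved less. CANX, which encodes calnexin, the lectin chaperone that holds new heavy chains, rose from 194 ± 4.2 to 214 ± 4.0 RPKM (n = 3, SD; by limma, adjusted p = 0.0072). PDIA3, the gene of the disulfide isomerase ERp57 that is linked to tapasin, rose from 73.4 ± 0.91 to 77.8 ± 1.7 RPKM (n = 3, SD; adjusted p = 0.040), a call that was lost without any 1 library other than shPDGFC replicate 2 (adjusted p from 0.080 to 0.12), with upper-quartile scaling (0.070) and with the replicate block (0.096). No call was made for CALR (341 and 353 RPKM), TAP2 (8.83 and 9.11 RPKM) or TAPBPL (1.37 and 1.74 RPKM), at adjusted p = 0.13, 0.62 and 0.24. ERAP1 shares 3.8% of its exon bases with CAST on the opposite strand (42.3 RPKM), and TAP2 shares 32.3% with AL669918.1 on the same strand. In PDIA3, 14.7% of the 50-base stretches occur in its pseudogene PDIA3P1. Reads of ERAP1, TAP2 and PDIA3 could therefore be misplaced. Of the promoter windows for this list, those of TAPBP, TAP1, TAP2, ERAP1 and ERAP2 held the interferon-stimulated core.

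**Figure D2:**
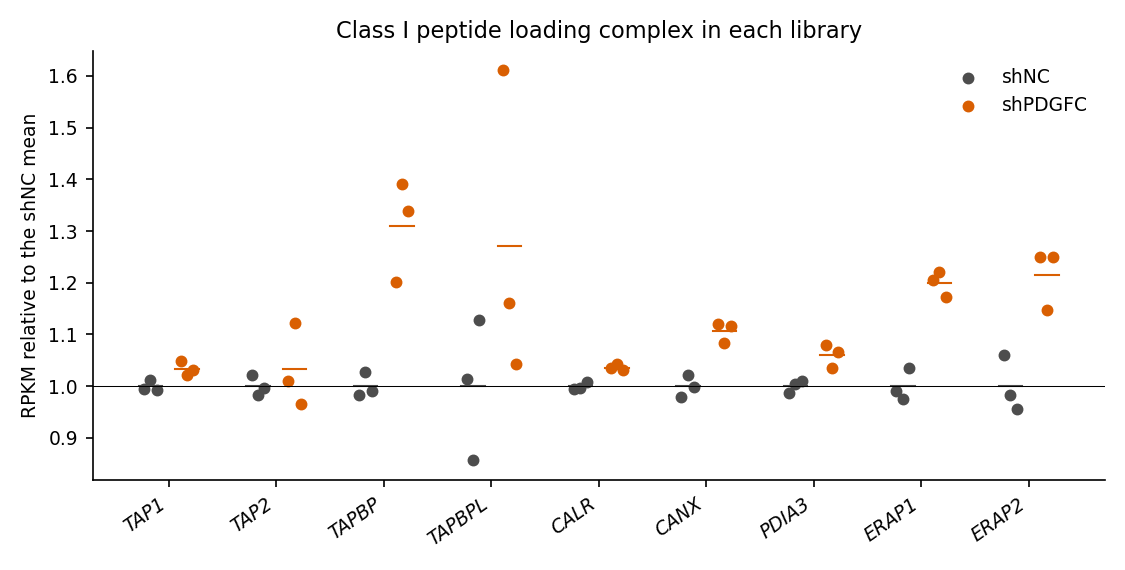
Level of each of the 9 peptide loading genes in each library, divided by the mean of its 3 shNC libraries (grey) and plotted with the 3 shPDGFC libraries (orange); short bars are means. TAP1, TAPBP, CALR, CANX, PDIA3, ERAP1 and ERAP2 show every shPDGFC library above every shNC library, as do 21.7% of all genes tested. TAP1 and CALR did not pass the test, and TAP2 and TAPBPL overlap between the groups.

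Among the other class I chains, HLA-F, a heavy chain that can reach the surface without peptide, fell from 11.95 ± 0.89 to 10.2 ± 0.42 RPKM (n = 3, SD; by limma, adjusted p = 0.031). Leaving out shNC replicate 1 or 3 (0.094 and 0.096 as adjusted p) or shPDGFC replicate 1 or 2 (0.076 and 0.085) ended that call. HLA-F also shares 12.3% of its exon bases with HLA-F-AS1 on the opposite strand (3.19 RPKM). HLA-G had 3 reads over the 6 libraries. Of the 7 class I chains listed, 6 were tested, 0 rose and 1 fell, with 15.6% called lower over all genes.

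HLA-DRA, the alpha chain of the HLA-DR heterodimer (ENSG00000204287, chromosome 6, 32439842 to 32445046), showed the largest log2 change among the 7 tested genes. Its level was 9.85, 9.89 and 10.4 RPKM in shNC and 7.65, 6.51 and 6.48 RPKM in shPDGFC. The highest shPDGFC library lay below the lowest shNC library, and the mean fell by 31.5%. All 3 shPDGFC libraries lay below all 3 shNC libraries for 25.1% of the genes tested, and above them for 21.7%. On the log2 scale it fell by 0.49 ± 0.061 (SE; limma, adjusted p = 0.0019). It rested on 809 shNC reads and 493 shPDGFC reads. No 1 library decided the call (adjusted p from 0.0019 to 0.010 with each left out). HLA-DRA shared no exon bases with another annotated gene, and none of its 50-base stretches occurred in another gene's transcripts.

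CD74, the invariant chain gene (ENSG00000019582, chromosome 5, 150401637 to 150412929), was near 0 in both groups. It had 10, 6 and 5 reads in shNC and 4, 5 and 7 in shPDGFC, or 0.0704 to 0.135 RPKM in the 6 libraries. With 3 reads worth between 0.0405 and 0.0559 RPKM, a difference between the groups was not detectable at this depth. Limma-voom on the recovered reads, run after the data were seen on all genes with at least 10 reads in total, gave a log2 change of -0.18 ± 0.45 (SE; adjusted p = 0.83), where 23.8% of 24546 genes were called.

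CIITA, the class II transactivator (ENSG00000179583, chromosome 16, 10866222 to 10943021), had 5, 2 and 3 reads in shNC and 1, 4 and 1 in shPDGFC. In 4 of the 6 libraries it was at or under the level of 3 reads. The same limma-voom fit gave a log2 change of -0.60 ± 0.65 (SE; adjusted p = 0.58). CIITA shares 11.6% of its exon bases with DEXI on the opposite strand (15.6 RPKM), so even these few reads may belong to DEXI where the counting ignored strand. Such floors cover counting error only.

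HLA-DRA mRNA was thus measured at 8.46 RPKM over the 6 libraries while CD74 stood at 0.096 RPKM and CIITA at 0.0078 RPKM. Which cells the class II transcripts came from was not tested. Markers of immune cells were scarce. Of 17 such markers, 15 stayed under 1 RPKM in every library, and the summed level of the list ran from 7.85 to 8.60 RPKM in shNC and from 7.77 to 8.41 RPKM in shPDGFC. The leukocyte gene PTPRC had 17 reads over the 6 libraries, the B cell gene MS4A1 had 0 and the macrophage gene CD68 had 3. CD68 shares 81.7% of its exon bases with AC016876.2 on the same strand, so its reads could be misplaced. CD83, an activation marker of dendritic cells that other cells also express, made up most of the sum at 5.35 ± 0.079 RPKM in shNC and 4.84 ± 0.19 RPKM in shPDGFC (n = 3, SD; by limma, adjusted p = 0.063). In bulk libraries fewer cells of a type and less RNA per cell cannot be told apart.

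The other class II chains followed the same direction as HLA-DRA where they changed. Of 13 listed chains 10 were tested, 6 fell, HLA-DRA among them, and 0 rose, against 15.6% of all genes called lower. Their median log2 change was -0.22. The summed RPKM of the 13 chains was 144 to 145 in shNC and 121 to 125 in shPDGFC, while that of the 7 class I chains was 641 to 646 and 642 to 680.

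HLA-DPA1, the HLA-DP alpha chain and the most abundant class II chain here, was measured at 31.9, 34.1 and 34.8 RPKM in shNC and 27.5, 26.9 and 26.5 RPKM in shPDGFC (log2 change -0.30 ± 0.035 SE; limma, adjusted p = 0.0015). HLA-DQB1, the HLA-DQ beta chain whose promoter is printed above, stood at 19.2, 18.1 and 18.1 RPKM in shNC and 14.9, 14.4 and 15.2 RPKM in shPDGFC (log2 change -0.30 ± 0.034 SE; adjusted p = 0.0014). In both genes every shPDGFC library lay below every shNC library. HLA-DOA, an alpha chain that restrains peptide exchange, fell from 19.0 ± 0.78 to 15.96 ± 0.37 RPKM (n = 3, SD; adjusted p = 0.0038).

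Weaker calls were those of HLA-DMB, a chain of the peptide exchange factor HLA-DM, from 8.63 ± 0.51 to 7.08 ± 0.52 RPKM (n = 3, SD; by limma, adjusted p = 0.018), and HLA-DPB1, the HLA-DP beta chain, from 5.83 ± 0.43 to 5.01 ± 0.18 RPKM (adjusted p = 0.043). Leaving out shNC replicate 1 or 3 (0.059 and 0.062 as adjusted p) or shPDGFC replicate 3 (0.051) ended the call of HLA-DMB. HLA-DPB1 lost it without any 1 library except shNC replicate 2 (adjusted p from 0.060 to 0.12). HLA-DPB1 also overlaps HLA-DPA1 on the opposite strand in 3.4% of its exon bases.

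The beta chains that pair with HLA-DRA did not pass the test. HLA-DRB1 was measured at 24.0, 21.75 and 23.0 RPKM in shNC and 21.75, 21.6 and 21.9 RPKM in shPDGFC (log2 change -0.071, 95% interval -0.16 to 0.016; limma, adjusted p = 0.19). HLA-DRB5 stood at 12.9 ± 0.91 and 12.8 ± 0.79 RPKM (n = 3, SD; adjusted p = 0.85). The shNC libraries had HLA-DRA to HLA-DRB1 ratios of 0.410, 0.455 and 0.453 and the shPDGFC libraries ratios of 0.352, 0.302 and 0.296, so that no library of one group reached the other (exact two-sided permutation p = 0.1, the smallest possible). HLA-DRB1 and HLA-DRB5 share 8.64% and 8.42% of their 50-base stretches with each other, and HLA-DRB1 and HLA-DRB5 reads may be exchanged. HLA-DMA (9.90 and 9.07 RPKM) and HLA-DOB (2.32 and 1.91 RPKM) did not pass the test either, at adjusted p = 0.19 and 0.27. HLA-DOB shares 29.7% of its exon bases with AL669918.1 on the same strand. HLA-DQA1, HLA-DQA2 and HLA-DQB2 did not reach 1 RPKM in 3 libraries.

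**Figure D3:**
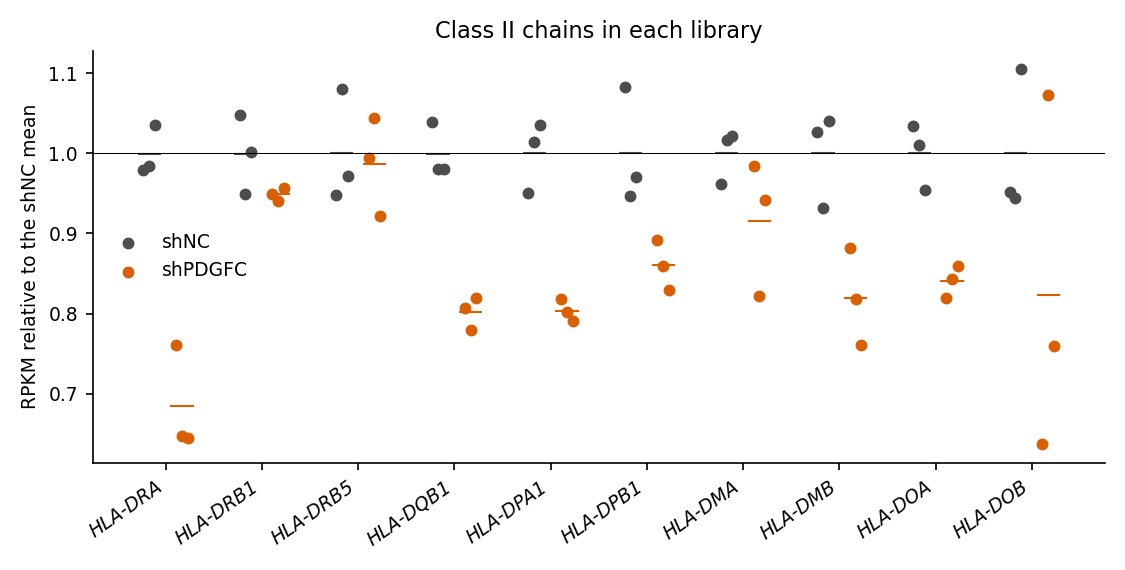
Level of each of the 10 tested class II chains in each library, divided by the mean of its 3 shNC libraries (grey) and plotted with the 3 shPDGFC libraries (orange); short bars are means. HLA-DRA, HLA-DQB1, HLA-DPA1, HLA-DPB1, HLA-DMB and HLA-DOA have all 3 shPDGFC libraries below all 3 shNC libraries, as do 25.1% of all genes tested. HLA-DRB1, HLA-DRB5, HLA-DMA and HLA-DOB overlap between the groups.

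**Figure D4:**
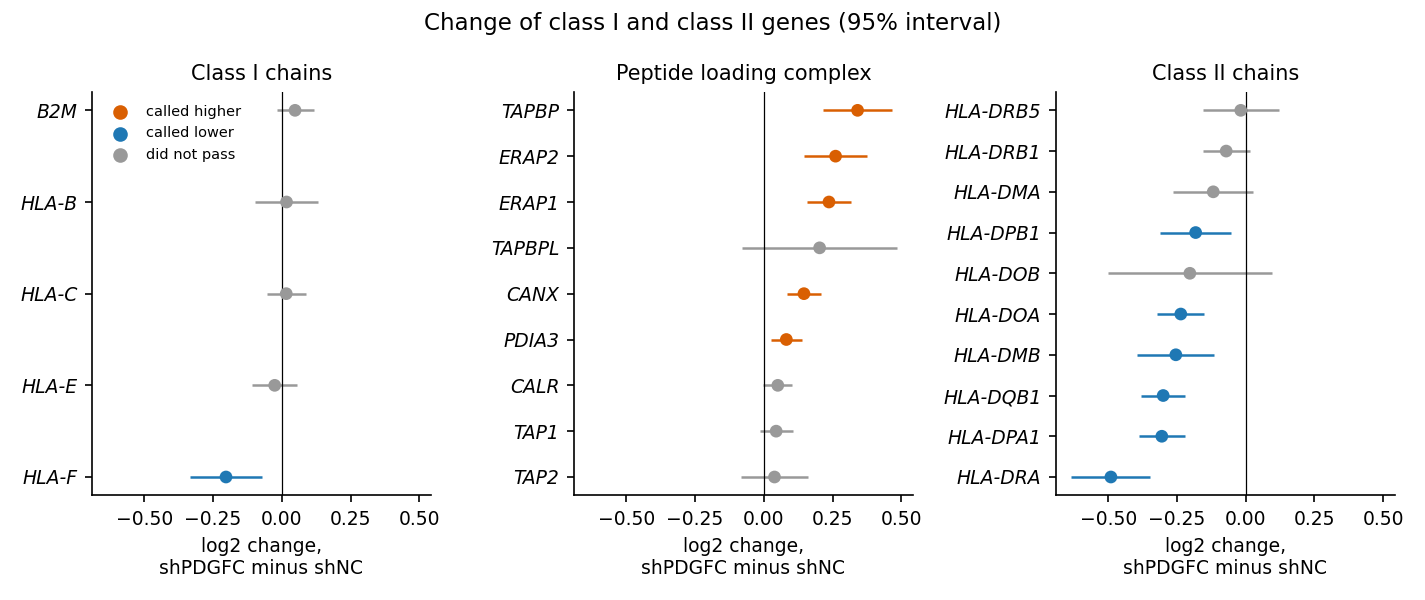
Log2 change, shPDGFC minus shNC, with its 95% interval from the limma fit for 5 of the tested class I chains and the tested peptide loading genes and class II chains; orange marks genes called higher, blue lower and grey those that did not pass. The intervals of B2M, HLA-B, HLA-C and HLA-E include 0, 5 of the 9 loading genes were higher, and 6 of the 10 class II chains were lower, with HLA-DRA farthest from 0 at -0.49.

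Factors that bind class I and class II promoters were measured next. The RFX complex occupies the X box, CREB and ATF proteins the X2 box and NF-Y the Y box. Of 10 listed regulators 9 were tested, 0 rose and 4 fell, where 14.2% of all genes tested were called higher and 15.6% lower. RFXAP, an RFX subunit, fell from 16.97 ± 0.71 to 14.3 ± 0.89 RPKM, ATF1 from 19.0 ± 0.59 to 15.5 ± 1.0 RPKM and NFYB from 20.4 ± 0.25 to 17.8 ± 0.59 RPKM (n = 3, SD; by limma, adjusted p = 0.012, 0.0053 and 0.0052). NFYA fell from 11.2 ± 0.24 to 9.97 ± 0.53 RPKM (adjusted p = 0.029), a call lost without any 1 library except shPDGFC replicate 1 (adjusted p from 0.055 to 0.083) and with the replicate block (0.073). No call was made for RFX5 (33.4 and 34.3 RPKM) or RFXANK (27.4 and 29.2 RPKM), at adjusted p = 0.32 and 0.17. NLRC5, the class I counterpart of CIITA, was low at 1.74 ± 0.13 and 1.60 ± 0.067 RPKM (n = 3, SD; adjusted p = 0.47).

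Of 10 tested interferon gamma signalling genes 3 were called higher and 0 lower, with 14.2% called higher and 15.6% lower over all genes tested. The log2 changes of all 10 were positive, down to 0.018 for JAK2 and 0.002 for IFNGR2, but 7 did not pass. The median log2 change of the 10 was 0.059, beside -0.013 over all genes. JAK1, the receptor-bound kinase, rose from 17.5 ± 0.35 to 20.7 ± 0.42 RPKM (n = 3, SD; by limma, adjusted p = 0.0018). IRF1, an interferon-induced transcription factor, rose from 2.82 ± 0.057 to 3.51 ± 0.20 RPKM (adjusted p = 0.015, and 0.051 without shNC replicate 3), and shares 22% of its exon bases with C5orf56 on the opposite strand (1.11 RPKM). The receptor gene IFNGR1 rose from 41.8 ± 0.98 to 44.9 ± 1.3 RPKM (adjusted p = 0.041), a call that ended on leaving out shNC replicate 1 or 3 (0.12 and 0.11) or shPDGFC replicate 2 or 3 (0.10 and 0.097), and under upper-quartile scaling (0.074).

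Of the immunoproteasome and activator list, 2 of 5 tested rose and 0 fell, with 14.2% called higher and 15.6% lower over all genes. PSME2 and PSME1 encode the interferon-inducible PA28 activator of the proteasome. PSME2 was measured at 72.0, 74.2 and 73.9 RPKM in shNC and 84.3, 85.2 and 82.8 RPKM in shPDGFC, without overlap (limma, adjusted p = 0.0017). PSME1 rose from 45.1 ± 1.7 to 50.6 ± 3.0 RPKM (n = 3, SD; adjusted p = 0.036), which ended on leaving out shNC replicate 2 or 3 (0.10 and 0.098) or shPDGFC replicate 1 or 2 (0.099 and 0.096), and under upper-quartile scaling (0.054). The immunoproteasome subunits PSMB8 (1.52 and 1.55 RPKM) and PSMB9 (8.26 and 6.91 RPKM) missed the threshold at adjusted p = 0.90 and 0.075, and PSMB10, which reached 1 RPKM in 2 libraries, was not tested (0.504 to 0.758 RPKM in shNC and 0.943 to 1.52 RPKM in shPDGFC). PSMB10 shares 34.8% of its exon bases with another gene on the same strand.

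Of 7 cytosolic and secretory peptidases 3 rose and 1 fell, where 29.8% of all genes tested were called. LAP3, a leucine aminopeptidase, rose from 27.2 ± 0.22 to 29.9 ± 0.18 RPKM (n = 3, SD; by limma, adjusted p = 0.0049). NPEPPS, the puromycin-sensitive aminopeptidase, fell from 39.0 ± 1.2 to 31.3 ± 0.45 RPKM (adjusted p = 0.00078). THOP1, which degrades cytosolic peptides, rose from 17.95 ± 0.90 to 20.1 ± 0.086 RPKM (adjusted p = 0.019, 0.051 to 0.052 when shNC replicate 2 or 3 or shPDGFC replicate 3 was left out), and TPP2, a large exopeptidase, from 15.8 ± 0.77 to 17.6 ± 0.11 RPKM (adjusted p = 0.023, 0.059 to 0.070 when replicate 1 or 3 of either group was left out, and 0.052 with the replicate block). Among 17 class I-like molecules 9 were tested, 1 rose and 0 fell, with 14.2% called higher over all genes. It was ULBP2, a ligand of the natural killer cell receptor NKG2D, at 8.83, 8.62 and 9.07 RPKM in shNC and 11.1, 11.8 and 12.5 RPKM in shPDGFC (log2 change 0.38 ± 0.045 SE; adjusted p = 0.0017).

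Of 8 tested genes of endosomal antigen processing 4 rose and 0 fell, with 14.2% of all genes tested called higher and 15.6% lower. The 4 were the proteases CTSD, CTSB and LGMN and the ubiquitin ligase MARCHF8, and the proteases CTSL, CTSV and CTSH did not pass (limma, adjusted p = 0.096, 0.33 and 0.30). CTSD, the aspartic protease cathepsin D, was measured at 4.76, 4.32 and 4.66 RPKM in shNC and 6.42, 7.19 and 7.74 RPKM in shPDGFC (log2 change 0.54 ± 0.067 SE; limma, adjusted p = 0.0018). CTSB, cathepsin B, rose from 21.3 ± 0.43 to 24.6 ± 0.41 RPKM, LGMN, the asparaginyl endopeptidase that begins invariant chain cleavage, from 36.8 ± 1.8 to 42.6 ± 0.19 RPKM and MARCHF8, a ubiquitin ligase that can act on class II, from 6.55 ± 0.12 to 7.56 ± 0.20 RPKM (n = 3, SD; adjusted p = 0.0024, 0.0057 and 0.0095). CTSS, the cathepsin of professional antigen presenting cells, and IFI30, the lysosomal thiol reductase, stayed under 1 RPKM in all 6 libraries. CTSD shares 41.7% of its exon bases with AC068580.4 and IFI30 40.2% with AC007192.1, both on the same strand, so their reads could be misplaced.

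Of 11 tested genes listed as negative regulators of class I, 2 rose and 3 fell, beside 14.2% and 15.6% of all genes tested. EZH2, the catalytic subunit of Polycomb repressive complex 2, was measured at 64.5, 65.9 and 64.7 RPKM in shNC and 54.4, 54.1 and 53.4 RPKM in shPDGFC (log2 change -0.27 ± 0.021 SE; limma, adjusted p = 0.00051). Its partners EED (29.96 and 27.3 RPKM) and SUZ12 (48.7 and 46.9 RPKM) missed the threshold at adjusted p = 0.082 and 0.18. TMEM127, which acts with SUSD6 and WWP2 to send class I to lysosomes, rose from 7.80 ± 0.21 to 9.30 ± 0.31 RPKM, and SPPL3, an intramembrane protease that alters surface glycans, from 11.8 ± 0.54 to 13.4 ± 0.25 RPKM (n = 3, SD; adjusted p = 0.0050 and 0.013). SUSD6 and WWP2 did not pass (adjusted p = 0.12 and 0.74). IRF2BP2, a corepressor that binds IRF2, fell from 16.4 ± 0.12 to 14.3 ± 0.42 RPKM (adjusted p = 0.0045), and PCGF1, a Polycomb subunit, from 15.02 ± 1.1 to 12.95 ± 0.86 RPKM (adjusted p = 0.048), which ended on leaving out replicate 1 or 3 of shNC or 2 or 3 of shPDGFC (0.11 to 0.13) and under median-ratio scaling (0.053).

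Markers of cell types other than leukocytes moved beside the class II fall in part. Of 10 fibroblast, endothelial and basal markers 3 were tested. LUM, a matrix proteoglycan gene of stromal cells, fell from 11.3 ± 0.33 to 7.96 ± 0.26 RPKM and COL3A1 rose from 0.883 ± 0.054 to 1.46 ± 0.15 RPKM (n = 3, SD; by limma, adjusted p = 0.00053 and 0.013). The summed level of this list was 18.4 to 18.7 RPKM in shNC and 14.7 to 15.1 RPKM in shPDGFC. Of 12 prostate luminal markers 9 were tested. KRT18, a keratin of luminal epithelium, rose from 60.7 ± 0.63 to 77.2 ± 4.2 RPKM (adjusted p = 0.0015). That list summed to 173 to 175 RPKM in shNC and 187 to 200 RPKM in shPDGFC, and 16.3% of the exon bases of KRT18 overlap KRT8 on the opposite strand (83.7 RPKM). The part of these markers in the changes of HLA-DRA and TAPBP was not tested.

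The pattern of HLA-DRA over the 6 libraries was shared by many genes. Of 15304 other tested genes, 574 had a Pearson correlation with it above 0.95 on log2(RPKM + 1). The 5 highest were SYBU (r = 0.9997), MIR4453HG (0.9996), PMS1 (0.998), NAA50 (0.9977) and GID4 (0.9973). SYBU encodes syntabulin, an adaptor for kinesin transport, MIR4453HG is a noncoding microRNA host gene, PMS1 encodes a mismatch repair protein, NAA50 an N-terminal acetyltransferase and GID4 a substrate receptor of a ubiquitin ligase. PMS1 was at 22.1 RPKM in shNC and 17.6 RPKM in shPDGFC (log2 change -0.31; limma, adjusted p = 0.0013). These correlations are over 6 libraries in 2 groups, so a gene can score high merely by differing between the groups in the same direction.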

How the data were processed

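RNA was measured in 3 shNC and 3 shPDGFC libraries, single-end and from an Ion Total RNA-Seq kit per the labels' protocols. The authors deposited 1 table of RPKM values, a unit read from the values since its header names none. All 60664 identifiers are human, whereas GRCm38 and mm10 are the builds in the submitters' processing notes. For aligner, counter, annotation and strand, the entry is: not given in the sources used here. Whole reads were recovered from the RPKM steps for 37040 of 37040 genes with a value (to within 1e-06 of a read, or 1e-10 of the count where that is larger), 521 of them after multiplying by a whole factor (their reads shared a divisor) so that the implied gene length was a whole number of bases. They came to 99.45% to 99.458% of each library's total. Symbols matched 60463 identifiers, and coordinates and overlaps come from GENCODE 29 on GRCh38, matched by identifier.

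Genes reaching 1 RPKM in 3 or more libraries were fitted with limma 3.58.1 (R 4.3.3), after log2(RPKM + 1), using a trend of variance on level, no block and Benjamini-Hochberg adjustment over all 15337 genes. An adjusted p under 0.05 was called. This scale understates changes of low genes. The procedure was tested on simulated data. Chi-square per degree of freedom over genes with at least 20 reads was 1.462 to 2.566 within groups and 7.085 to 9.974 between them, so no libraries were merged. Alternatives were other pseudocounts, filters and scalings, limma-voom on the recovered reads, each library left out and a replicate block. The 9 genes and the lists were chosen with earlier results of these data known. The text names the 9 genes, PDGFC, for each list at least the 2 called genes in each direction with the smallest p, further genes of the lists, and the 5 genes most correlated with the member of smallest p. Some genes of the lists are not reported here one by one.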

Additional observations from a re-analysis of the deposited data

How the results depend on the processing

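TAPBP stayed called higher and HLA-DRA called lower under all 16 alternatives, with log2 changes of 0.302 to 0.396 and -0.559 to -0.455 when 1 library was left out. The other 5 tested members passed under none of them. With 1 library left out, the log2 change ran from -0.022 to 0.073 for HLA-B, from -0.012 to 0.036 for HLA-C and from -0.053 to 0.001 for HLA-E, so that the sign turned for HLA-B without shNC replicate 2 (-0.022) or shPDGFC replicate 1 (-0.003), for HLA-C without shPDGFC replicate 1 (-0.012) and for HLA-E without shPDGFC replicate 2 (0.001). It ran from 0.031 to 0.064 for B2M and from 0.036 to 0.053 for TAP1. Of the 77 tested pathway genes outside the 9, 19 were called higher and 14 lower. Over all genes tested, 14.2% were called higher and 15.6% lower. With no filter on low values 9 were called lower, and with 1 library left out 9 to 15 were called lower (9 without shNC replicate 1 and 9 without shNC replicate 3) and 13 to 19 higher. Without that filter the genes named here that lost their call (adjusted p from 0.052 to 0.13) were HLA-F, PDIA3, PSME1, TPP2, THOP1, HLA-DPB1, HLA-DMB, NFYA, IFNGR1 and PCGF1. The cause was not tested. Calls of class II chains lower were 6, and 4 to 6 with 1 library left out.

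Replicate numbers did not pair the libraries, since same-numbered libraries had correlations of deviations of -0.101, -0.111 and -0.018. With the replicate block, the log2 changes of TAPBP (0.341, adjusted p = 0.013) and HLA-DRA (-0.49, adjusted p = 0.012) kept their calls, 1 member was called higher and 1 lower, and among all genes tested 1628 were called higher and 1841 lower, against 2173 and 2398 without it. Depth limits CD74 and CIITA, which had 37 and 16 reads over the 6 libraries.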
